A study of Mus musculus with 15 samples.

Results

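The fibrillar collagens are the 10 genes Col1a1, Col1a2, Col2a1, Col3a1, Col5a1, Col5a2, Col5a3, Col11a1, Col24a1 and Col27a1. Each was taken from the deposited table of raw read counts by its symbol, and all 10 were found once among the 33340 genes of the table. The libraries were made from polyadenylated RNA of whole C57BL/6 lung. The study describes the mice as males of 10 to 12 weeks, used as a bleomycin (BLM) model of pulmonary fibrosis. BLM, a drug that breaks DNA, was given into the trachea at 5 U/kg. There were 4 libraries at day 0 without BLM and 4, 4 and 3 libraries at days 7, 14 and 21 after it. Every library came from the same strain and from intact lung with all of its cell types, and no transgene or gene deletion was involved. Day 0 replicate 4 was titled as a control but carried a BLM treatment label, and it was kept at day 0 by its title. The series text gives 3 replicates per time point, where the titles give 4 at days 0, 7 and 14, and the study speaks of biological replicates without tying each library to an animal, so p-values measure the spread between these libraries.

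Fibrillar collagens are the rope-forming collagens of connective tissue. Their chains wind into a triple helix in the endoplasmic reticulum, are secreted as procollagens, lose their end propeptides outside the cell, and assemble into fibrils that are then cross-linked. Types I and III form the bulk of lung fibrils, type V starts and thins them, types II and XI are the cartilage pair, and types XXIV and XXVII are minor members with a shorter, interrupted helix. Fibroblasts and myofibroblasts make most of these chains in the lung, and their deposition is what stiffens a fibrotic lung.

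Libraries held 15652008 to 18020661 counts, spread over 22100 to 23970 genes. The share of counts from 16 mitochondrial genes was 2.03 to 2.15% in the 4 day 7 libraries, but 2.28 to 4.22% at day 0, 2.10 to 4.14% at day 14 and 2.66 to 4.01% at day 21. The 8 lung markers (Sftpc, Sftpb, Sftpa1, Ager, Scgb1a1, Foxj1, Pecam1 and Ptprc) were above 0 in every group, although their summed level went from 53525 to 68869 CPM at day 0 to 10361 to 14879 CPM at day 21. Of these 8, 0 were higher and 1, 6 and 4 were lower at days 7, 14 and 21 (median log2 change -0.37, -0.78 and -0.94), where 7.36%, 11.2% and 10.1% of all genes tested were lower. The day 7 count is near that share. At day 14 without its replicate 1, 3 of the 8 were lower (median log2 change -0.63), where 10.2% of all genes were lower. Ager, at 1995 to 2991 CPM at day 0 and 1042 to 2660 CPM at day 21, overlapped. Markers of other tissue also moved. The summed level of 5 adipose markers (Adipoq, Cfd, Plin1, Cidec and Lep) was 19.2 to 51.6 CPM at day 0, 7.65 to 91.5 CPM at day 7, 1.0 to 3.64 CPM at day 14 and 0.741 to 2.54 CPM at day 21, where Lep was at 0, and of 4 tested 1, 4 and 3 were lower on the later days. That of 7 cardiac markers (Myh6, Myl7, Nppa, Actc1, Tnnt2, Tnni3 and Myl4) was 23.7 to 284 CPM at day 0, 27.3 to 646 CPM at day 7, 25.9 to 42.8 CPM at day 14 and 18.8 to 758 CPM at day 21, and of 6 tested 0, 1 and 0 were lower and 0 higher. Without day 14 replicate 1, 4 of the 4 adipose and 0 of the 6 cardiac markers tested were lower at day 14. The part of these tissues in the collagen results was not tested. CPM denotes counts scaled to library size after TMM normalization. Day 14 replicate 1 stood apart in the collagens: they took 1.46% of its counts, against 0.383 to 0.545% in the other 3 day 14 libraries. The changes of tested members from day 0 to day 14, the list counts of day 14 and its main member levels and shares are therefore also given without it.

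The sequence that defines the family is a coding run in which GG, the first 2 bases of every glycine codon, opens 1 codon in 3. The first 54 bases of the longest such run are shown for 5 members that the results turn on, read from the principal transcripts of the GENCODE M21 annotation, with each such GG in capitals. They show the shared repeat and how freely the other bases vary.
Col1a1: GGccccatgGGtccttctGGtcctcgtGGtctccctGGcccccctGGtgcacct
Col3a1: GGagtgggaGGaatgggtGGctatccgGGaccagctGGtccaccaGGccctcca
Col11a1: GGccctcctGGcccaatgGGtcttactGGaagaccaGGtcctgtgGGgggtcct
Col24a1: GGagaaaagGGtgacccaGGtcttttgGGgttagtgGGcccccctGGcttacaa
Col27a1: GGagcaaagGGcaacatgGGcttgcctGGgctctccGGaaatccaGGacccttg
The unbroken run held 338 triplets in Col1a1, 339 each in Col1a2, Col2a1 and Col5a2, 344 in Col3a1, 338 each in Col5a1 and Col11a1, and 337 in Col5a3. It was shorter in Col24a1, with 216 triplets, and in Col27a1, with 217. The 10 genes therefore fall into 8 with a long helix and 2 with a short one. The short pair did not move alike, as described below.

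RefSeq promoter windows were matched for 7 members: Col1a2, Col3a1, Col5a1, Col5a3, Col11a1, Col24a1 and Col27a1. Those without an entry were Col1a1, Col2a1 and Col5a2. The RefSeq starts of Col1a2 and Col27a1 lie inside these genes as annotated in GENCODE M21, and so do their windows. The RefSeq starts of Col3a1, Col5a1, Col5a3, Col11a1 and Col24a1 match the annotated gene start. The 150 bases before the RefSeq start are shown for a type III, a type V and a type XI gene, which rose, and for Col27a1, which moved least. They are written 5′ to 3′ on GRCm38.p6, and capitals mark matches to the motifs named after them.
Col3a1, plus strand, chr1:45311388-45311537: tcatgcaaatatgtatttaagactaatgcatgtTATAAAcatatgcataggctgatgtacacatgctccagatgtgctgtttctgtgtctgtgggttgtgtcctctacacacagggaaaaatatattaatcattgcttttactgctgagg
Col5a1, plus strand, chr2:27886275-27886424: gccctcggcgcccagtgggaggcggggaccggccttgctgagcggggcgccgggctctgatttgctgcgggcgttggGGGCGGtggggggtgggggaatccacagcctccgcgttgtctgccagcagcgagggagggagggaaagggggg
Col11a1, plus strand, chr3:114030390-114030539: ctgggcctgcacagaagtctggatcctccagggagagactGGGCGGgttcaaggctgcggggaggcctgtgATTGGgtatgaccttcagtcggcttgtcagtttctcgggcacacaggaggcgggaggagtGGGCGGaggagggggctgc
Col27a1, plus strand, chr4:63215262-63215411: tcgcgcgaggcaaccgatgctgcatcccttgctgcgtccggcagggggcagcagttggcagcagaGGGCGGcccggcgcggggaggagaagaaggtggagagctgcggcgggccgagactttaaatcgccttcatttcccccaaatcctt
Motifs were searched on both strands in the 250 bases before the start. GGGCGG, the GC box, was found in 5 of the 7 windows (Col1a2, Col5a1, Col5a3, Col11a1 and Col27a1) and in 32.9% of 27025 mouse promoters. CCAAT was found in 3 (Col1a2, Col5a3 and Col11a1) and in 34.5% of promoters, and TATAAA was found in Col3a1 alone and in 13.0% of promoters. TGACTCA, held by 4.43% of promoters, and GTCTAGAC, held by 0.174%, were in none of the 7. Col5a1, which rose, and Col27a1, which moved least, both held a GC box. These matches describe letters and not sites that were shown to be bound.

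To ask when fibrillar collagen RNA rose after BLM, each later day was compared with day 0. At day 7 the genes called higher were Col1a1, Col1a2, Col3a1, Col5a1, Col5a2, Col5a3 and Col24a1. Col11a1 joined them at day 14 and Col27a1 at day 21, and no member was lower on any day. The day 7 calls of Col1a2, Col5a1 and Col5a3 were lost when the fit held the mitochondrial share, and the day 21 call of Col27a1 was lost without any 1 of 4 libraries, as given with each gene. The call rule, in edgeR's quasi-likelihood test, was a fold change over 1.5 with an adjusted p (Benjamini-Hochberg) under 0.05. Of all 17457 genes tested, 8.78% were higher and 7.36% lower at day 7, 12.0% and 11.2% at day 14, and 12.4% and 10.1% at day 21. Col2a1 had too few counts for the filter and is described by its counts. Col11a1 and Col24a1 passed that filter only through the later days, so the counts and medians set beside all genes leave them out. Of the 7 members with at least 10 counts in every day 0 library, 6, 6 and 7 were higher on the 3 days. Over these 7 the median log2 fold change was 2.14 at day 7, 2.81 at day 14 and 2.99 at day 21, and the medians of all genes tested were 0.01, 0.02 and 0.02. The day 14 median was 1.98 without day 14 replicate 1, below that of day 7, and 6 of the 7 were still higher. The 3 comparisons share the day 0 libraries. In whole lung, more cells of a type and more RNA per cell cannot be told apart.

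**Figure D1:**
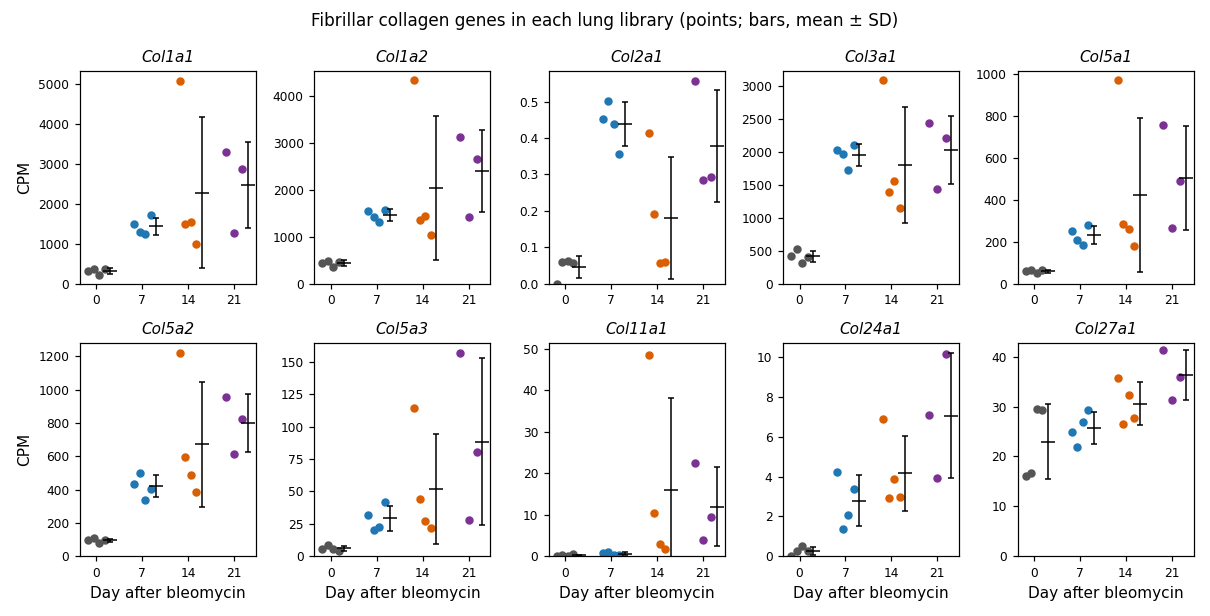
Level of each fibrillar collagen gene in CPM (y axis, linear, a scale of its own in each panel) by day after BLM (x axis). Points are libraries and bars are mean ± SD of 4, 4, 4 and 3 libraries, with bars below 0 not drawn. Day 14 replicate 1 is the highest point for Col1a1, at 5084 CPM, while the Col27a1 points of days 0 and 7 overlap.

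The members together took 0.135% ± 0.0231 (SD, n = 4) of all counts at day 0. Their share was 0.556% ± 0.0497 (n = 4) at day 7, 0.724% ± 0.497 (n = 4) at day 14 and 0.841% ± 0.305 (n = 3) at day 21. The lowest later library, at 0.383%, lay above the highest day 0 library, at 0.159%. The day 14 share was 0.478% ± 0.0843 (n = 3) without day 14 replicate 1, below the mean of day 7.

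Type I collagen, the main load-bearing collagen, is built from 2 chains of Col1a1 (chr11:94936224-94953042, plus strand) and 1 chain of Col1a2 (chr6:4504814-4541544, plus strand). Col1a1 stood at 311, 371, 208 and 363 CPM in the day 0 libraries. It reached 1497, 1285, 1254 and 1712 CPM at day 7, 5084, 1495, 1558 and 991 CPM at day 14, and 3302, 1265 and 2881 CPM at day 21. Every later library lay above every day 0 library. At days 14 and 21 the libraries parted widely, and the lowest of each lay within or below the day 7 range. Against day 0, Col1a1 rose 4.59-fold at day 7 (log2 2.20, SE 0.43), 7.29-fold at day 14 (2.87, SE 0.44) and 7.93-fold at day 21 (2.99, SE 0.46). The adjusted p values by edgeR's quasi-likelihood test were 0.00244, 0.000208 and 0.000246. Without day 14 replicate 1, the day 14 log2 change was 2.08.

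Col1a2 stood at 438, 492, 349 and 471 CPM at day 0 and at 1558, 1428, 1309 and 1573 CPM at day 7. It was 4342, 1364, 1452 and 1029.9 CPM at day 14, and 3129.6, 1429.7 and 2664 CPM at day 21. The same libraries were high and low as for Col1a1, and no later library overlapped day 0. The log2 change was 1.75 (SE 0.37) at day 7, 2.23 (SE 0.37) at day 14 and 2.46 (SE 0.39) at day 21, with edgeR adjusted p values of 0.00373, 0.0004 and 0.000317. Without day 14 replicate 1 it was 1.53 at day 14, where the call held. With the mitochondrial share in the fit, its day 7 call did not hold (log2 1.24, edgeR adjusted p = 0.0561).

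Type III collagen, made of Col3a1 chains alone, mixes with type I in the fibrils of elastic organs. Col3a1 (chr1:45311538-45349706, plus strand) stood at 421, 525, 316 and 405 CPM at day 0 and at 2030.0, 1973, 1720.0 and 2105 CPM at day 7. It was 3093, 1389, 1553 and 1151 CPM at day 14, and 2435, 1441 and 2211 CPM at day 21. Again no later library overlapped day 0. The log2 change from day 0 was 2.23 (SE 0.28), 2.11 (SE 0.28) and 2.28 (SE 0.29) at days 7, 14 and 21, with edgeR adjusted p values of 8.55e-05, 5.11e-05 and 5.14e-05. At day 14, 3 of the 4 libraries were below every day 7 library, and without day 14 replicate 1 the log2 change from day 0 was 1.69.

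Type V collagen is the minor collagen buried in type I fibrils, where it sets their number and width. Its main chain Col5a1 (chr2:27886425-28039514, plus strand) stood at 59.4, 64.5, 51.2 and 65.8 CPM at day 0 and at 253, 207, 186 and 279 CPM at day 7. It was 968, 286, 259 and 181 CPM at day 14, and 757, 264 and 491 CPM at day 21. All later libraries lay above day 0, and day 14 replicate 1 was far above the other 3. The log2 change was 1.94 (SE 0.43), 2.81 (SE 0.45) and 3.07 (SE 0.47) at days 7, 14 and 21 (edgeR adjusted p = 0.0052, 0.000248 and 0.000216), and 1.98 at day 14 without day 14 replicate 1. With that covariate the day 7 call was lost (1.43, edgeR adjusted p = 0.0795). Exons of Col5a1 share 99 bases with 2810430I11Rik and 113 bases with Gm13372 on the opposite strand. The strand setting of the counting is not given in the sources used here, so reads there cannot be assigned to a strand.

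Col5a2, the partner chain (chr1:45374321-45503282, minus strand), stood at 95.1, 109.5, 81.8 and 95.1 CPM at day 0 and at 435, 499, 339 and 406 CPM at day 7. It was 1222, 596, 491 and 385 CPM at day 14, and 956, 612 and 826 CPM at day 21. Every day 21 library lay above every day 7 library. This was also so for Col11a1 and Col27a1, but not for Col1a1, Col1a2, Col3a1 or Col5a1. The share of all genes so placed between these days was not counted. The log2 change from day 0 was 2.14 (SE 0.29), 2.82 (SE 0.29) and 3.06 (SE 0.31) at days 7, 14 and 21 (edgeR adjusted p = 0.000157, 6.9e-06 and 8.25e-06), and 2.34 at day 14 without day 14 replicate 1. Col5a2 lies beside Col3a1, on the opposite strand, with 24614 bases and no annotated gene between their 3′ ends.

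Col5a3, a less common type V chain (chr9:20770050-20815067, minus strand), stood at 5.89, 8.47, 5.84 and 4.30 CPM at day 0 and at 32.2, 20.1, 22.6 and 41.9 CPM at day 7. It was 114, 44.3, 27.5 and 21.8 CPM at day 14, and 157, 28.2 and 80.5 CPM at day 21. No later library overlapped day 0, while days 7, 14 and 21 overlapped each other. The log2 change was 2.25 (SE 0.55), 3.09 (SE 0.56) and 3.85 (SE 0.59), with edgeR adjusted p values of 0.00842, 0.000683 and 0.000221. Without day 14 replicate 1 it was 2.33 at day 14, and without day 21 replicate 1 it was 3.12 at day 21. The day 7 call was lost with the mitochondrial covariate (1.76, edgeR adjusted p = 0.0887).

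**Figure D2:**
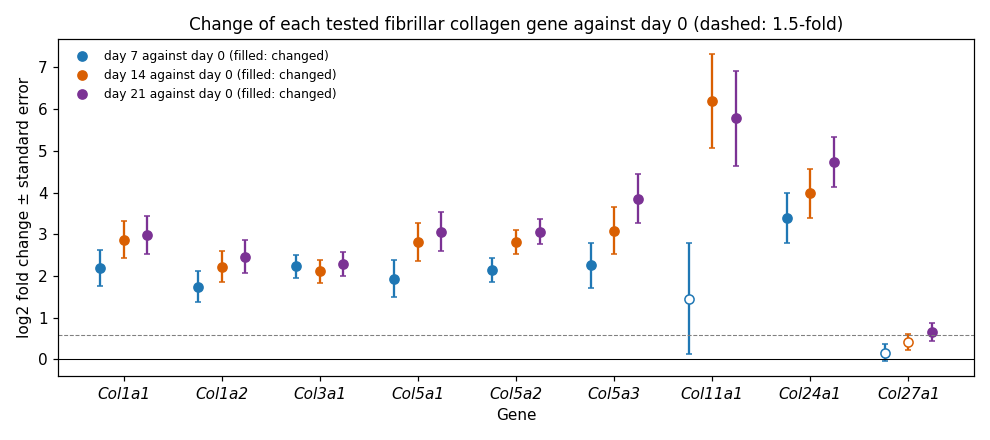
log2 fold change against day 0 (y axis; points, with standard errors as bars) for the 9 fibrillar collagen genes tested (x axis), in colours by day. Filled points passed the call rule, and the dashed line marks 1.5-fold. Col11a1 is open at day 7 and filled at 6.19 at day 14, and Col27a1 is filled at day 21 alone. Col11a1 and Col24a1 passed the filter only through the later days.

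Type XI collagen is the cartilage relative of type V, and Col11a1 (chr3:114030540-114220718, plus strand) encodes its first chain. It was close to absent at day 0, with 1, 4, 1 and 8 counts (0.0647, 0.242, 0.0635 and 0.446 CPM). Day 7 held 15, 18, 5 and 4 counts (0.850, 1.0, 0.275 and 0.238 CPM), and its range overlapped day 0. Day 14 held 823, 164, 52 and 30 counts (48.6, 10.5, 2.98 and 1.81 CPM), and day 21 held 363, 71 and 160 counts (22.4, 4.05 and 9.41 CPM). All 7 libraries of days 14 and 21 lay above all 8 of days 0 and 7. The log2 change from day 0 was 1.46 (SE 1.32, adjusted p = 0.447) at day 7, 6.19 (SE 1.12, adjusted p = 0.000702) at day 14 and 5.77 (SE 1.15, adjusted p = 0.00156) at day 21 by edgeR. The size at day 14 rests in large part on 1 library: without day 14 replicate 1 the log2 change was 4.52 (edgeR adjusted p = 0.00109). At day 21 it was 4.91 without day 21 replicate 1. Leaving out day 0 replicate 4, the library with 8 counts, gave 6.89 at day 14 and 6.46 at day 21. Of the members, Col11a1 was the one called between day 7 and day 14. It passed the filter only through days 14 and 21, where it was high, so its calls depend on that rise.

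Type II collagen, the main collagen of cartilage, is the product of Col2a1 (chr15:97975602-98004695, minus strand). Its counts were 0, 1, 1 and 1 at day 0, and 8, 9, 8 and 6 at day 7. They were 7, 3, 1 and 1 at day 14, and 9, 5 and 5 at day 21. Every library of days 7 and 21 held more than any day 0 library, but at day 14 replicates 3 and 4 held 1 count each. Scaled to library size, summed counts stood at 9.58 times day 0 at day 7 (95% exact interval 2.99 to 49.0), 3.91 times at day 14 (1.05 to 21.6) and 8.20 times at day 21 (2.42 to 43.3). Counting error alone is in those intervals, and reads copied by PCR are not separate molecules. The day 14 ratio rests in large part on replicate 1, which held 7 of the 12 counts, and it was not computed without that library. With no filter, edgeR's quasi-likelihood test gave adjusted p values of 0.0118, 0.199 and 0.0242 on the 3 days.

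The 16 cartilage markers were set beside these 2 genes. Their summed level was 113 to 129 CPM at day 0, 73.8 to 124 CPM at day 7, 68.7 to 153 CPM at day 14 and 48.0 to 90.2 CPM at day 21, where Matn4 held most of it. Matn1, Col9a1, Ucma, Snorc and Epyc were at 0 in all day 0 libraries, Cnmd and Epyc in all of day 7, Snorc and Epyc in all of day 14, and Snorc in all of day 21. Acan, the core cartilage proteoglycan, held 0 to 3 counts at days 0 and 7, 0 to 10 at day 14 and 3 to 4 at day 21. Hapln1 went from 0.381 to 0.647 CPM at day 0 to 2.89 to 6.0 CPM at day 14. On the same days Comp stood at 0.129 to 0.381 and 0.687 to 1.63 CPM, and Col10a1 at 0 to 0.121 and 0.458 to 1.0 CPM. In the other direction, Chad stood at 17.5 to 30.5 and 1.66 to 3.26 CPM, and Cytl1 at 14.3 to 17.9 and 2.19 to 4.15 CPM. Of 7 markers tested, 0 were higher and 2 lower at day 7, and 3 were higher and 2 lower at days 14 and 21 (4 and 2 at day 14 without its replicate 1), beside 8.78%, 12.0% and 12.4% of all genes higher and 7.36%, 11.2% and 10.1% lower. The part of cartilage in the Col11a1 and Col2a1 results was not tested.

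Col24a1 (chr3:145292472-145552011, plus strand) encodes a minor chain known from bone and cornea. It held 0, 4, 8 and 5 counts at day 0 (0 to 0.508 CPM), 75, 25, 38 and 57 at day 7 (1.40 to 4.25 CPM), 117, 46, 68 and 49 at day 14 (2.93 to 6.91 CPM), and 115, 69 and 173 at day 21 (3.93 to 10.2 CPM). No later library overlapped day 0. The log2 change was 3.39 (SE 0.59), 3.98 (SE 0.59) and 4.74 (SE 0.60) at days 7, 14 and 21, with edgeR adjusted p values of 0.00107, 0.000139 and 5.32e-05, and 3.60 at day 14 without day 14 replicate 1.

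Col27a1 (chr4:63214004-63334991, plus strand), known from cartilage and its growth plate, moved least. It stood at 16.1, 16.7, 29.6 and 29.3 CPM at day 0 and at 24.9, 21.8, 27.0 and 29.3 CPM at day 7. It was 35.7, 26.6, 32.4 and 27.6 CPM at day 14, and 41.4, 31.4 and 36.0 CPM at day 21. Day 0 fell into a low and a high pair, the high pair lay within the day 14 range, and only day 21 stood wholly above day 0. The log2 change was 0.17 (SE 0.19, adjusted p = 0.56), 0.42 (SE 0.19, adjusted p = 0.111) and 0.66 (SE 0.21, adjusted p = 0.0248) at days 7, 14 and 21 by edgeR. Without day 14 replicate 1 it was 0.31 at day 14 (edgeR adjusted p = 0.291). The day 21 call was lost when day 0 replicate 1 or 2, or day 21 replicate 1 or 3, was left out, with a log2 change from 0.49 to 0.77 over all 7 libraries left out in turn and a highest adjusted p of 0.125. It was also lost when days 0 and 21 were fitted alone (0.63, edgeR adjusted p = 0.0826) and with glmTreat at a fold change of 1.5 (adjusted p = 0.598).

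The day 0 pair with high Col27a1, replicates 3 and 4, was also the pair with a high mitochondrial share, at 4.22% and 4.04%, against 2.28% and 2.31% in replicates 1 and 2. Any split of the day 0 libraries by that share therefore splits Col27a1 as well, and the change of Col27a1 within such a split tests nothing. For the other 8 members tested, the calls of day 14 were kept among libraries over 3.5%, 3 of day 14 and 2 of day 0, with a log2 change of 1.63 for Col1a2 and of 4.22 for Col11a1. That set leaves out day 14 replicate 1 (2.10%), the library high in collagen, and holds day 0 replicate 4, whose labels disagree. Among libraries under 2.5%, 4 of day 7 and 2 of day 0, the 7 calls of day 7 held, with a log2 change of 2.06 for Col1a1. With log2 of the share as a covariate over all 15 libraries, 4 members stayed called at day 7 (Col1a1, Col3a1, Col5a2 and Col24a1). The labels name no batch, and the part of the mitochondrial share in the Col27a1 values was not tested.

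**Figure D3:**
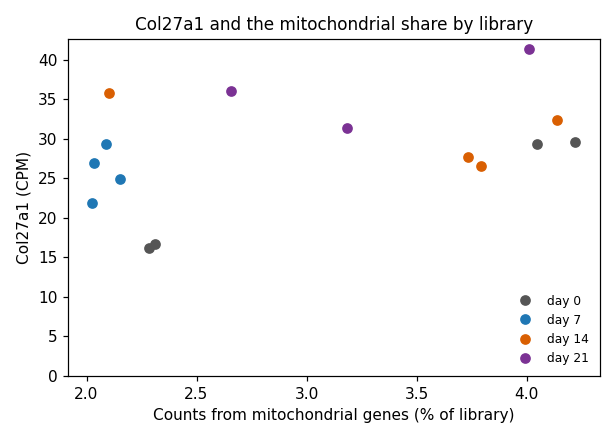
Col27a1 in CPM (y axis, from 0) against the share of counts from mitochondrial genes in percent (x axis) for the 15 libraries, coloured by day. The day 0 libraries form a pair at 16.1 and 16.7 CPM with a low share and a pair at 29.3 and 29.6 CPM with a high share.

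Between the later days few members were called. From day 7 to day 14, edgeR, DESeq2 and limma voom called 0 of the 7 members with at least 10 counts in every day 0 library, and 1 of them, Col5a2, had an unadjusted p under 0.05 in edgeR, where 2.77% of all genes were higher and 3.23% lower. Col11a1, which that count leaves out, was higher (log2 4.73, SE 0.98, adjusted p = 0.0147 by edgeR's quasi-likelihood test). The Col11a1 difference was 3.08 without day 14 replicate 1 (adjusted p = 0.0198 by edgeR), and its call was lost with limma voom (adjusted p = 0.112) and with glmTreat at a fold change of 1.5 (adjusted p = 0.0687). From day 7 to day 21, 1 of the 7 was higher, Col5a2 (0.93, SE 0.29, adjusted p = 0.0496 by the same test), where 5.20% of all genes were higher and 4.34% lower. An unadjusted p under 0.05 in edgeR was found for 4 of the 7 (Col5a1, Col5a2, Col5a3 and Col27a1) and for 5238 of all genes tested. Col11a1, again outside that count, was higher too (log2 4.31, SE 1.0, edgeR adjusted p = 0.0141). The Col5a2 call was lost whenever any 1 of the 7 libraries was left out, with a log2 change from 0.76 to 1.06 and a highest adjusted p of 0.185. The Col11a1 call at day 21 was lost without day 21 replicate 1 (log2 3.47, edgeR adjusted p = 0.058), with limma voom (adjusted p = 0.0636) and with glmTreat (adjusted p = 0.0583). From day 14 to day 21, edgeR and DESeq2 called 0 of the 9, and 0 had an unadjusted p under 0.05 in edgeR, where 0% of all genes were called and 1714 had such a p. The log2 differences there ran from -0.42 for Col11a1 (SE 0.84) to 0.77 for Col5a3 (SE 0.53). Without day 14 replicate 1 they ran from 0.32 for Col27a1 to 1.49 for Col5a3, with Col11a1 at 1.23 and none called. Standard errors of this size leave moderate differences undetectable with 4 and 3 libraries.

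A count of libraries needs no model. Of the 7 members with at least 10 counts in every day 0 library, every later library was above every day 0 library for 6 at day 7, 6 at day 14 and 7 at day 21, and Col27a1 was the one that overlapped. Of all genes tested, 17.6%, 16.8% and 19.4% were so placed on these days. Day 0 replicate 4, whose labels disagree, lay within the day 0 range for Col1a1, Col1a2, Col3a1 and Col5a2, was the highest of its group for Col5a1 and Col11a1, and was the lowest for Col5a3. No member gained or lost a call against day 0 when it was left out.

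Levels of different members were compared per kilobase of the principal transcript, a level scale called CPM per kb. At day 0 the order was Col1a2 (81.8 ± 11.8), Col3a1 (74.9 ± 15.4) and Col1a1 (52.8 ± 12.6, SD, n = 4), whose ranges overlapped from each to the next. Col5a2 (14.4 ± 1.71), Col5a1 (7.17 ± 0.791), Col27a1 (3.01 ± 0.989) and Col5a3 (1.0 ± 0.282) followed, each with every library above the next. Col24a1, Col11a1 and Col2a1 came last and overlapped, with means of 0.0360, 0.0266 and 0.0088 CPM per kb. At day 0, then, the lung held Col27a1 above Col5a3, whereas by day 7 the mean of Col5a3 (4.77 ± 1.62) was above that of Col27a1 (3.38 ± 0.418), with overlapping ranges.

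At day 7 Col3a1 led at 352 ± 30.0 CPM per kb, with every library above every Col1a2 library (274 ± 23.1), and Col1a1 (242 ± 35.9) overlapped the latter. At day 14 Col1a1 (385 ± 318), Col1a2 (383 ± 288) and Col3a1 (323 ± 158) overlapped. With replicate 1 left out, the day 14 order was Col3a1 (245 ± 36.3), Col1a2 (240 ± 41.6) and Col1a1 (227 ± 52.4, SD, n = 3), which overlapped too. At day 21 Col1a2 stood at 450 ± 164, Col1a1 at 419 ± 181 and Col3a1 at 365 ± 93.7 CPM per kb (SD, n = 3), and neighbours in this order overlapped. Below them were Col5a2 (120 ± 26.3), Col5a1 (60.0 ± 29.3), Col5a3 (14.5 ± 10.6), Col27a1 (4.76 ± 0.656), Col11a1 (1.56 ± 1.23), Col24a1 (0.990 ± 0.437) and Col2a1 (0.0742 ± 0.0302). Of neighbours in the lower part, Col5a3 and Col27a1 overlapped, as did Col11a1 and Col24a1. Col11a1 held rank 9 at day 0, rank 10 at day 7 and rank 8 at days 14 and 21. The order of the top 3 depends on the length used. With all annotated exons, Col1a1 came first on every day.

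**Figure D4:**
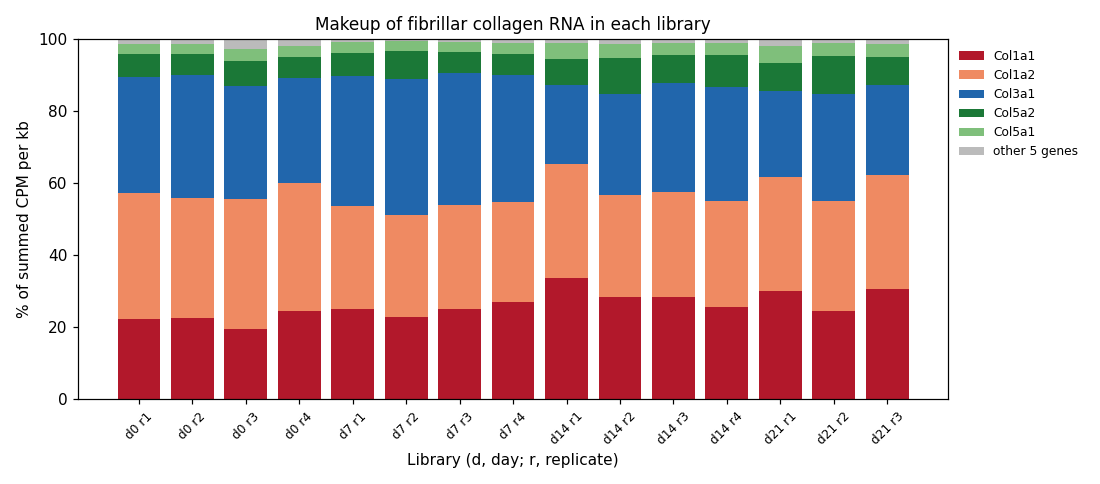
Makeup of fibrillar collagen RNA: share of the summed CPM per kb (y axis, percent, from 0 to 100) of each gene in each of the 15 libraries (x axis; d, day; r, replicate). The Col3a1 share is larger at day 7, at a mean of 36.4%, than at days 14 and 21, and type I makes up more than any other type in every library.

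As a share of the summed CPM per kb of all members, Col1a1 went from 22.3% ± 2.10 at day 0 to 25.0% ± 1.69 at day 7, 28.9% ± 3.35 at day 14 and 28.4% ± 3.45 at day 21. Col1a2 went from 34.9% ± 1.22 to 28.4% ± 0.605, 29.8% ± 1.40 and 31.2% ± 0.545. Its day 0 range, 33.2 to 36.1%, lay above all later libraries. Col3a1 went from 31.8% ± 2.01 to 36.4% ± 0.879 at day 7, above every day 0 library, and then to 27.9% ± 4.34 and 26.1% ± 3.14. Col27a1 went from 1.35% ± 0.631 at day 0 to between 0.351% and 0.397% on the later days. Col11a1 went from 0.0107% ± 0.00912 at day 0 to 0.120% ± 0.101 at day 14. Without day 14 replicate 1 the day 14 shares were 27.4% ± 1.58 for Col1a1, 29.1% ± 0.471 for Col1a2, 29.9% ± 1.85 for Col3a1 and 0.0769% ± 0.0657 for Col11a1. These shares are not independent of each other, and they move with the length used for each gene.

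Ratios within a library need no scaling between libraries and were tested for 3 pairs over 3 days. The ratio of Col1a1 to Col1a2, the 2 chains of type I, was 0.641, 0.680, 0.539 and 0.694 at day 0 and 0.867, 0.811, 0.864 and 0.982 at day 7. It was 1.06, 0.989, 0.968 and 0.868 at day 14 and 0.952, 0.798 and 0.975 at day 21. All 11 later libraries were above all day 0 libraries. The log2 difference from day 0 was 0.47, 0.61 and 0.51 at days 7, 14 and 21, with exact two-sided permutation p = 0.0286, 0.0286 and 0.0571. These are the smallest p that 4 against 4 and 4 against 3 libraries can give, and each became 0.129 when adjusted over the 9 tests, so none passed. The day 14 difference was 0.56 without day 14 replicate 1. The direction and size of this difference do not depend on gene length, which shifts the ratio of all libraries alike.

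The ratio of Col3a1 to Col1a1 was 1.44, 1.51, 1.62 and 1.19 at day 0 and 1.45, 1.64, 1.46 and 1.31 at day 7, ranges that overlapped (log2 difference 0.03, exact permutation p = 0.857). At day 14 it was 0.648, 0.990, 1.06 and 1.24, and at day 21 it was 0.786, 1.21 and 0.818. Day 14 replicate 4 and day 21 replicate 2, the libraries with the least collagen of their days, had the ratios nearest to day 0. The log2 difference was -0.58 at day 14 (exact permutation p = 0.0571, adjusted 0.129), or -0.39 without day 14 replicate 1, and -0.64 at day 21 (p = 0.114, adjusted 0.206). The ratio of Col5a1 to Col5a2 overlapped day 0 on each later day, with log2 differences of -0.20, -0.19 and -0.10 and exact permutation p values from 0.257 to 0.686.

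**Figure D5:**
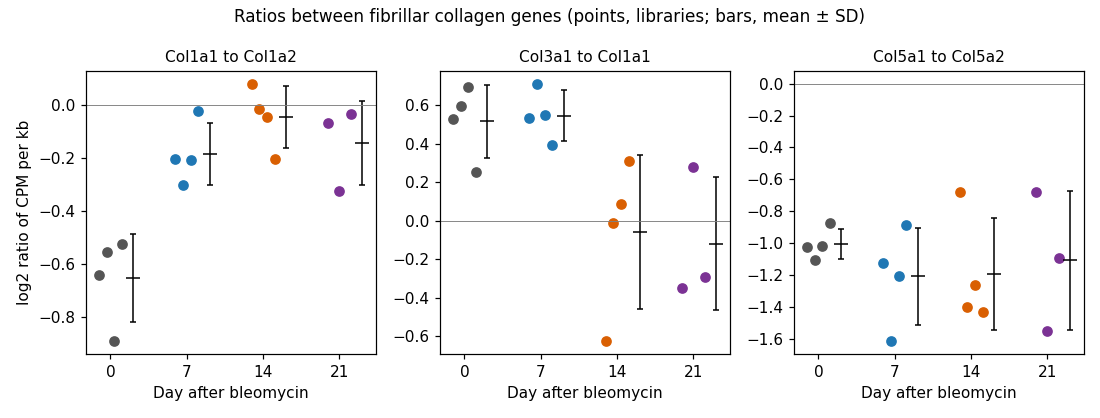
log2 ratio of CPM per kb between pairs of members in each library (y axis; points) by day after BLM (x axis), with mean ± SD as bars and a grey line at equal levels. In the left panel all later libraries lie above all day 0 libraries, while in the right panel the days overlap.

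Within a day, most members moved together from library to library. Pearson's r of log2 CPM with Col1a1, after the day means were subtracted and over 15 libraries that share depth and scaling, was 0.988 for Col1a2, 0.972 for Col3a1, 0.970 for Col5a1, 0.907 for Col5a2, 0.865 for Col5a3 and 0.820 for Col11a1. It was 0.268 for Col27a1. Leaving out day 14 replicate 1, these values were 0.982, 0.932, 0.924, 0.757, 0.782 and 0.619, and 0.0979 for Col27a1. Genes most like Col1a1 were sought among 12249 genes of at least 5 CPM. That count includes members, which were not ranked. Those most like Col1a1 were Ltbp1 (0.987), which holds latent TGFβ in the matrix, Col6a3 (0.958), Col12a1 (0.954), Adamts7 (0.953) and Palld (0.940). Without day 14 replicate 1 they were Ltbp1 (0.970), Adamts7 (0.908), Col6a3 (0.902), Mgll (0.898) and Col12a1 (0.883). Most like Col3a1 were Col12a1, Lamb1, Ltbp1, Cd248 and Grb10 (0.943 to 0.956), and most like Col5a1 were Ltbp1, Col6a3, Adamts7, Des and Tnc (0.935 to 0.973). Without that library they were Col15a1, Fam81a, Col12a1, Plod1 and Lamb1 for Col3a1 (0.882 to 0.906), and Ltbp1, Tnc, Ms4a8a, Adamts7 and Actg2 for Col5a1 (0.894 to 0.936). The genes most like Col27a1 were Nr4a2 (0.956), Tchh (0.907), Amigo3 (0.887), Chchd7 (0.880) and Nr4a3 (0.875), and without that library Amigo3, Nr4a2, Kmt5c, Alkbh1 and Fuz (0.939 to 0.964). These values describe the libraries and carry no test.

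Most markers of the fibroblasts that make these chains in healthy lung passed no test. The summed level of 11 markers (Pdgfra, Pdgfrb, Tcf21, Inmt, Npnt, Dpt, Pi16, Mfap4, Dcn, Gli1 and Wt1) had a median of 4232 CPM at day 0 (3487 to 4592), 3006 CPM at day 7 (2658 to 3522), 2073 CPM at day 14 (1386 to 2522) and 1963 CPM at day 21 (1718 to 2284). Inmt alone went from 1318 to 2419 CPM at day 0 to 104 to 302 CPM at day 14. Pdgfrb went the other way, from 93.2 to 116 CPM at day 0 to 121 to 212 CPM at day 14 and 202 to 273 CPM at day 21. Summed without Inmt, the other 10 had medians of 2185, 2426, 1882 and 1828 CPM on the 4 days, and the median log2 change of the 11 was -0.01, -0.42 and -0.29 at days 7, 14 and 21. None was at 0 in all libraries of a day. Of the 11, 0 were higher and 1 lower at day 7, 0 higher and 4 lower at day 14, and 1 higher and 4 lower at day 21. Of all genes, 8.78%, 12.0% and 12.4% were higher and 7.36%, 11.2% and 10.1% lower on these days. The day 7 count of lower markers is near the share of all genes, and those of days 14 and 21 are above it. At day 14 there were 0 higher and 4 lower without its replicate 1. The part of fibroblast number in the collagen results was not tested.

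The enzymes and partners that handle these chains were read from lists by role, with edgeR calls against day 0. These counts stand beside the shares of all genes given above, 8.78%, 12.0% and 12.4% higher and 7.36%, 11.2% and 10.1% lower at days 7, 14 and 21. Of 19 genes that fold and modify the chains in the endoplasmic reticulum, 7, 8 and 7 were higher and 1, 1 and 2 lower at days 7, 14 and 21, with median log2 changes of 0.33, 0.44 and 0.40. P4ha3, a subunit of prolyl 4-hydroxylase, which stabilises the helix, went from a mean of 1.68 ± 0.663 CPM at day 0 to 24.8 ± 16.7 CPM at day 14 (log2 3.87, SE 0.40, edgeR adjusted p = 6.9e-06). Fkbp10, a chaperone of procollagen, rose by 1.83 (SE 0.25) and Plod1, a lysyl hydroxylase, by 0.62 (SE 0.16) on the log2 scale. Colgalt2, a galactosyltransferase for hydroxylysine, fell by 1.77 (SE 0.28). Of 10 genes that act on collagen transcription or its mRNA, 1, 2 and 3 were higher and none lower (median log2 change 0.32, 0.31 and 0.30), with Scx (1.13, SE 0.31), a tendon factor, and Runx2 (0.70, SE 0.20), a bone factor, higher at day 14. Counts this small, beside the share of all genes, are no result about the list.

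Propeptide cleavage gave mixed values. Of 10 genes, 7 were tested, of which 1, 2 and 4 were higher and 1 was lower at days 7, 14 and 21 (median log2 change 0.17, 0.31 and 0.66). Adamts2, the N-propeptidase, rose by 1.55 (SE 0.19) at day 14, and Bmp1, the C-proteinase, by 1.04 (SE 0.18). Pcolce2, an enhancer of that proteinase, fell from 306 ± 23.1 CPM at day 0 to 62.4 ± 27.8 CPM at day 14 (log2 -2.29, SE 0.30, edgeR adjusted p = 5.68e-05), and all 4 day 14 libraries were below day 0.

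Cross-linking had the largest share of higher calls. Of the 5 lysyl oxidases, 4 were higher at day 7 and all 5 at days 14 and 21, with median log2 changes of 1.10, 1.65 and 2.34. At day 14, Loxl2 was 2.24 (SE 0.36), Lox 1.95 (SE 0.33), Loxl3 1.59 (SE 0.26) and Loxl1 1.35 (SE 0.22) above day 0 on the log2 scale, and every day 14 library was above every day 0 library for each. Lox went from 171 ± 26.8 CPM at day 0 to 868 ± 47.6 CPM at day 21.

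Of 13 proteins that sit on or organise fibrils, 8, 10 and 10 were higher and 1 was lower at days 7, 14 and 21 (median log2 change 0.82, 1.04 and 1.25). Fn1, fibronectin, on which collagen fibrils assemble, went from 412 ± 81.1 CPM at day 0 to 4142 ± 2935 CPM at day 14 (log2 3.33, SE 0.37, edgeR adjusted p = 1.12e-05). Fmod, fibromodulin, rose by 2.33 (SE 0.31) and Postn, periostin, by 0.78 (SE 0.25) at day 14. Tnxb, tenascin-X, which spaces fibrils, fell by 2.10 (SE 0.29) on the log2 scale.

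Most genes that break down or take up collagen were higher in the same lungs. Of 8, there were 5, 6 and 6 higher and 1 lower at days 7, 14 and 21 (median log2 change 1.36, 1.28 and 1.38). Mmp13, a collagenase, rose by 3.46 (SE 0.41) at day 14, Ctsk, a collagen-cleaving cathepsin, by 3.08 (SE 0.35), and Mrc2, a receptor for collagen uptake, by 1.10 (SE 0.16). Mmp9, a gelatinase, fell by 1.28 (SE 0.32). Of 8 collagen receptors, 1, 1 and 2 were higher and 0, 1 and 0 lower (median log2 change 0.23, 0.43 and 0.43). Lair1, an inhibitory receptor of leukocytes, rose by 1.53 (SE 0.25) at day 14, and Itga1, the collagen-binding integrin subunit, fell by 0.95 (SE 0.27). The receptor counts, too, are no result about the list beside the share of all genes.

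The day 14 counts of genes higher without day 14 replicate 1 were 7 of 19 for folding, 1 of 10 for transcription, 2 of 7 for propeptide cleavage, 5 of 5 for cross-linking, 8 of 13 for fibril proteins, 6 of 8 for breakdown and uptake, and 1 of 8 for receptors, where 10.2% of all genes were higher and 10.2% lower. In each list 1 gene was lower, apart from cross-linking, where there were 0. Of the genes named above, Plod1 (log2 0.45), Runx2 (0.51) and Postn (0.39) lost their day 14 calls and the others kept theirs. Fn1 was then 2.68, P4ha3 3.28, Loxl2 1.74, Lox 1.48 and Mmp13 3.31 above day 0 on the log2 scale.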

How the data were processed

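Per the labels and the study's methods, the authors trimmed the reads, aligned them to mouse GRCm38 with HISAT2 2.1.0 and deposited raw counts per Ensembl gene from HTSeq 0.6.0, with no normalization. The submitters' notes also name DESeq2 1.40.2, whose output was not used here. The annotation release and the strand setting are not given in the sources used here. Symbols, coordinates and lengths came from GENCODE M21, which matched 33267 of 33340 identifiers.

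Counts were tested in R 4.3.3 with edgeR 4.0.16: filterByExpr by day (17457 genes kept), TMM factors, glmQLFit and glmQLFTest, with day as the only term, all 15 libraries in 1 fit and Benjamini-Hochberg adjustment over all genes tested. The common biological coefficient of variation was 22.8%. Standard errors are on the log2 scale, and log2 CPM used a prior count of 2. Ratios were tested with exact two-sided permutation tests. Total counts of 15652008 to 18020661 per library set the counting precision.

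Named were all 10 members, up to 2 called genes with the highest and 2 with the lowest change at day 14 in each pathway list, and the 5 genes most like Col1a1, Col3a1, Col5a1 and Col27a1. The markers Matn4, Acan, Hapln1, Comp, Col10a1, Chad, Cytl1, Inmt, Pdgfrb and Ager were chosen after their values were seen. Members, lists and tests were chosen with earlier results of these data known. Groups and replicate numbers came from sample titles. Alternatives were DESeq2 1.42.0, limma voom (limma 3.58.1), total count scaling, RLE factors, other filters, 2 groups alone, a replicate block, the mitochondrial share, other fold thresholds, each library left out, and, added after the data were seen, the length of all annotated exons, lists and member levels without day 14 replicate 1, and the fibroblast sum without Inmt.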

Additional observations from a re-analysis of the deposited data

Results flagged for a closer look

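Of 39 groups of 4 libraries checked, over the members and 3 of their ratios, 4 had a library far from the other 3, where chance flags about 5%. In day 14 replicate 1, Col1a1 was 5084 CPM against 991 to 1558 CPM in the others, Col1a2 was 4342 CPM against 1029.9 to 1452 CPM, and Col5a1 was 968 CPM against 181 to 286 CPM. Day 0 replicate 1 held 0 CPM of Col2a1 against 0.0558 to 0.0635 CPM, which is 1 count in each of the other 3.

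Between days, the change from day 0 passed the test of the difference for 2 members. For Col11a1 it was larger at day 14 than at day 7 by 4.73 and larger at day 21 than at day 7 by 4.31 on the log2 scale, and for Col5a2 it was larger at day 21 than at day 7 by 0.93, each by the edgeR contrast of the 2 days. The Col5a2 call was lost when any 1 of the 7 libraries of days 7 and 21 was left out, and the Col11a1 call at day 21 without day 21 replicate 1. Col11a1 passed the filter only through days 14 and 21, where it was high.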

How the results depend on the processing

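Under the alternatives, 521 fold changes against day 0 were tallied for the 9 members tested, which leaves out Col2a1. Of these, 510 kept their direction and their side of the threshold, 9 lost a call, 1 gained one and 1 reversed. The reversal was Col27a1 at day 14 among libraries over 3.5% mitochondrial (-0.0396), a set that holds only the day 0 pair with high Col27a1. The number of members changed at day 7 went from 7 to 4 with the mitochondrial covariate, where the calls over all genes went from 2818 to 1269. The call gained at day 7 was Col27a1 (0.63) among libraries under 2.5% mitochondrial, a set with only the day 0 pair of low Col27a1. Outside that tally, Col2a1 gained a call at day 7 with no filter and with DESeq2, and at day 21 with no filter. From day 7 to day 14 the number of members changed went from 1 to 0 with limma voom and with glmTreat. From day 7 to day 21 it went from 2 to 1 with RLE factors, limma voom and the replicate block, to 0 with glmTreat, and lay between 0 and 2 with each library left out. It went to 3 with no filter, with the 2 groups alone and with DESeq2. Differences between later days that passed no test reversed in places: Col1a1 ran from -0.0908 to 0.92 and Col1a2 from -0.19 to 0.70 (day 14 against day 7) with each library left out, Col3a1 from -0.52 to 0.0402 there and 0.27 with the covariate, and Col3a1 from -0.12 to 0.22 at day 21 against day 7. At day 21 against day 14, Col1a1 ran from -0.16 to 0.87, Col1a2 from -0.0175 to 0.90, Col5a1 from -0.18 to 1.05 and Col11a1 from -1.27 to 1.23, with 0.37 by voom and 0.43 with the covariate. The log2 ratio of Col3a1 to Col1a1 at day 7 ran from -0.0600 to 0.0874, and that of Col5a1 to Col5a2 at day 21 from -0.32 to 0.12. The cause of these shifts was not tested. Deviations from the day means of libraries with the same replicate number had r from -0.244 to 0.397 (mean 0.0685, above 0 in 16 of 21 pairs and over 0.1 in 8), against a mean of -0.0222 over 63 other pairs. The highest r was with the own number for 7 of 15 libraries. Same-number pairs were more alike on average than other pairs, and these values do not settle whether the numbers are pairs. The main fit left the numbers out, and the replicate block is an alternative. With replicate number as a block, Col3a1 at day 21 against day 7 was -0.0173 and Col5a2 lost its call. With all annotated exons, mean Col1a1 over mean Col1a2 per kb was 1.36, 1.85, 2.11 and 1.95 at days 0, 7, 14 and 21, against 0.646, 0.884, 1.01 and 0.93 with the principal transcript.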
